A study of Mus musculus with 3 samples.

Results

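The cells described here are the corpus principal cells of the mouse epididymis that were marked by Defb22 and Pate1. They numbered 1284 of the 4959 cells of the corpus library (25.9%, exact Clopper-Pearson 95% interval 24.7 to 27.1%) and of 14845 cells in all. The single-cell RNA sequencing came from untreated wild-type C57BL/6 mice, 56 days old. The epididymis was cut into its proximal head (caput), its middle part (corpus) and its distal tail (cauda), and each region gave 1 library. The sources used here do not say how many animals went into a library. Unique molecular identifiers (UMIs), which count captured RNA molecules, were summed per gene and cell.

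The cells were chosen by their own counts. A corpus cell had to hold 1000 or more UMIs and at most 2 UMIs in all of Krt5 (basal cells), Foxi1 (clear cells), Ptprc (leukocytes), Pecam1 (endothelium) and Dcn (fibroblasts). That left 3101 corpus cells. The UMIs of 2 panels of 5 genes each were then counted per 10000 UMIs of the cell and divided by their mean over all corpus cells, which gives the cell's fold of that panel. A Defb22 and Pate1 cell had a fold of at least 1 for Defb22, Pate1, Bsph2, Defb38 and Car4, and that fold was larger than its fold for Spint4, Spint5, Defb23, Defb29 and Spag11a. The mirrored rule gave 520 Spint4 and Defb23 cells, and the other 1297 filtered cells were below the mean for both panels. For comparison, 234 cauda cells and 1808 caput cells passed the same filter and held at least the mean of their own library for a principal cell panel (Ly6f, Slc7a15, Smpx, Pnmt and Cwh43 in the cauda, and Gpx5, Lcn5, Lcn8, Lcn9 and Cst11 in the caput).

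Principal cells are the tall secretory and absorptive cells that line the epididymal duct. They release proteins into the fluid around the maturing sperm and take others up. Which proteins they make changes along the duct, and the fluid's acidity and protein content change with them. Beta-defensins, small cationic peptides with antimicrobial activity that coat sperm, and inhibitors of proteases are among the best known of these products.

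Of the 5 genes that marked the cells, Defb22 and Defb38 encode beta-defensins and Bsph2 encodes a binder of sperm protein that attaches to sperm membranes. Pate1 encodes a small secreted protein of the Ly6 family, and Car4 a carbonic anhydrase anchored at the cell surface that handles bicarbonate. Defb22 lies at chr2:152485663-152490138, Pate1 at chr9:35685079-35687390, Bsph2 at chr7:13554864-13571067 and Defb38 at chr8:19023407-19026566, all on the minus strand. Car4 lies at chr11:84957786-84966044 on the plus strand (GRCm38, GENCODE M21). Defb22 has Defb23, a gene of the other panel, as a close neighbour at chr2:152459055-152464620 on the same strand. The 250 bases before the start of both neighbours are shown, with those of Pate1 and Bsph2, because the genes were high in different corpus cells or high together. They come from RefSeq on GRCm38.p6, are written 5′ to 3′ on the gene's strand and end at the base before the start in RefSeq, which for Pate1 lies inside the gene as GENCODE draws it. Capitals mark TATAAA (the TATA box).
Defb22, chr2:152490139-152490388, minus strand: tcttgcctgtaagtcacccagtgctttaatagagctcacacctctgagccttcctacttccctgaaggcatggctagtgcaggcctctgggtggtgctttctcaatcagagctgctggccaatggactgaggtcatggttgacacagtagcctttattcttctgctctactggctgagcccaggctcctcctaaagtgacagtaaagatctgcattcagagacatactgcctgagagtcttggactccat
Defb23, chr2:152464621-152464870, minus strand: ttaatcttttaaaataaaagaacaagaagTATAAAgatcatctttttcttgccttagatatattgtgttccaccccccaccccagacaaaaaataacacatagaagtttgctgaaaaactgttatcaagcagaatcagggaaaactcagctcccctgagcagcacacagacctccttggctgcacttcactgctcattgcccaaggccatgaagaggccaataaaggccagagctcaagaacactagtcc
Pate1, chr9:35687372-35687621, minus strand: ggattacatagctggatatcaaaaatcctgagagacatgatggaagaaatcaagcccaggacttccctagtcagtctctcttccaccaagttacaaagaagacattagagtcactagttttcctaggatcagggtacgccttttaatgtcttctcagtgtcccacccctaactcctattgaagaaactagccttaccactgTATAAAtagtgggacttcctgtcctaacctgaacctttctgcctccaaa
Bsph2, chr7:13571068-13571317, minus strand: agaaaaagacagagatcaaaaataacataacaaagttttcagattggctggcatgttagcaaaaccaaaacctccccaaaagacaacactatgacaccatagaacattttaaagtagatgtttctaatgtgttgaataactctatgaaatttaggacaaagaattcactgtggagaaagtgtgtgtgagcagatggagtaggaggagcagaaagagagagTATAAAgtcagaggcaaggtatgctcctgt

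Counted from the gene's start, TATAAA began at -221 in Defb23, -49 in Pate1 and -30 in Bsph2. It was not found on either strand in the windows of Defb22, Defb38 and Car4, and the forkhead core TGTTTAC was found in none of these 6 windows. The motifs do not overlap each other. Among 32851 RefSeq promoter windows of the same length, 12.37% held TATAAA and 3.166% held TGTTTAC on either strand. These matches describe the letters only.

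The corpus library had a median of 2605 UMIs and 1076 genes per cell, between those of the caput library (5067 UMIs) and the cauda library (2094 UMIs), and 28.7% of its cells held over 20% mitochondrial UMIs. Between 14 and 21 cell barcodes were shared by any 2 of the 3 libraries. With 1 library per region there is no replicate check and no test. All levels below are CPM, the UMIs of a gene summed over a group of cells and scaled to the same total (1000000) in each group. Their 95% intervals are exact Poisson intervals, and intervals of ratios are exact conditional binomial ones. These intervals cover counting error only. The members summed to 6645422 UMIs, the Spint4 and Defb23 cells to 2019939 and the cauda principal-panel cells to 852687.

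RNA of the corpus epithelium was also found in corpus cells of other types, and its level there is given beside the results. These were 1390 corpus cells with 1000 or more UMIs and 3 or more UMIs of Ptprc, Pecam1 and Dcn, with a median of 3240.5 UMIs and a median fold of 0.272 for the Defb22 and Pate1 panel. They held 934 CPM of Defb22 and 1574 CPM of Spint4. The same class in the cauda library held 0.384 CPM of Defb22 and 1.21 CPM of Spint4. How much of this RNA was free in the suspension and how much came from principal cells caught with other cells or counted in this class was not tested. A level in principal cells that is at or below the level in this class is read here as background. Cells of this class can also express a gene themselves, which this reading does not set apart.

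The members were close to their library in depth. They held a median of 2714.5 UMIs (range 1010 to 73869) and 1056 genes per cell, with a median mitochondrial share of 15.3%, and 430 of them (33.5%) were over 20%. Their fold of the Defb22 and Pate1 panel had a median of 2.12 and ran from 1.004 to 6.32, and their fold of the other panel had a median of 0.395. Both folds were at least 1 in 294 corpus cells, of which 170 were members. No caput cell and 22 cauda cells met the rule when it was applied to the other libraries with the corpus means.

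**Figure D1:**
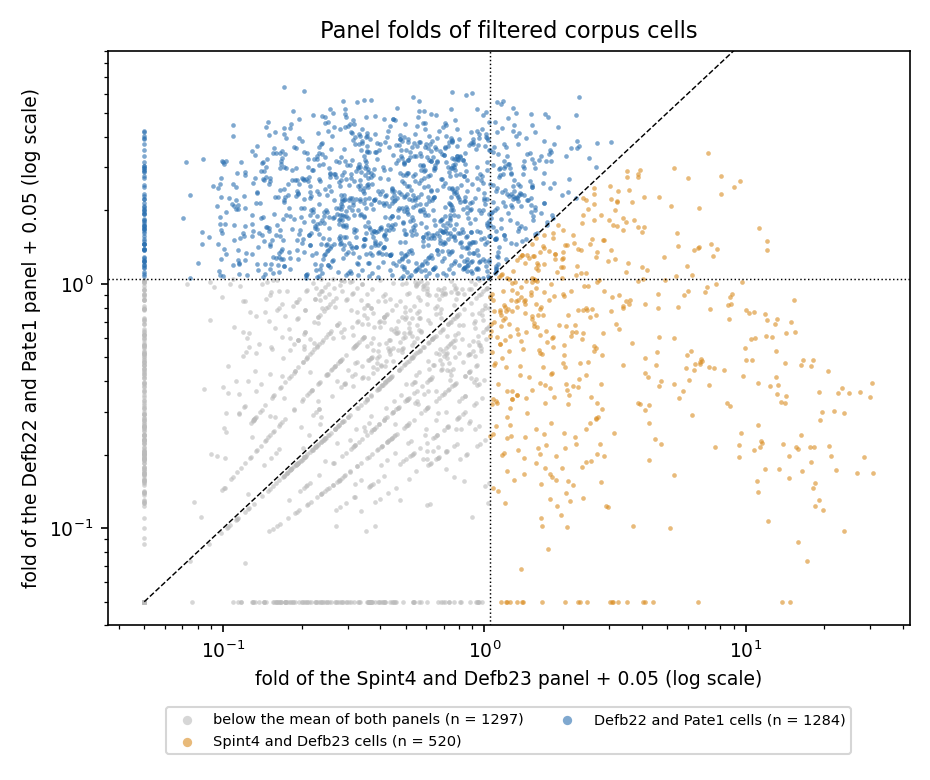
Each point is 1 of 3101 filtered corpus cells, with its fold of the Spint4 and Defb23 panel on the x axis and its fold of the Defb22 and Pate1 panel on the y axis, both with 0.05 added and on log scales. Dotted lines mark a fold of 1 and the dashed line equal folds; the 1284 Defb22 and Pate1 cells spread over the whole range of low folds of the other panel, and cells lie on both sides of each line without a gap.

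The cut ran through a continuous range of cells. The 66 members with a fold between 1 and 1.1 held 553 CPM of Defb22 and 1869 CPM of Defb38. The 61 filtered corpus cells with a fold between 0.9 and 1 held 610 CPM and 1339 CPM of the same genes. Both sets also held the principal cell genes Crisp1 (10607 and 7876 CPM) and Spink8 (16537 and 14442 CPM). Along the other edge, the 38 members whose folds of both panels were closest and the 32 cells just beyond it held 1638 and 1985 CPM of Defb22.

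The label was checked against markers that the rule had not used. The list of 20 epithelial and principal cell genes was detected in full in the members. They held 57222 CPM of it, against 46816 CPM in the Spint4 and Defb23 cells and 23596 CPM in the corpus cells of other types. The cauda principal-panel cells held 53532 CPM of this list, but the caput principal-panel cells only 18026 CPM. Its sum therefore differs between regions and does not by itself set principal cells apart from other cells. Clear cell genes summed to 597 CPM, most of it Car2, basal cell genes to 96.2 CPM and fibroblast genes to 332 CPM. Macrophage and dendritic cell genes summed to 214 CPM, endothelial genes to 33.3 CPM and T and NK cell genes to 11.9 CPM. In the corpus cells of other types, fibroblast genes summed to 13757 CPM and macrophage and dendritic cell genes to 1683 CPM. These contrasts were set in part by the choice of cells. The filter limited Ptprc, Pecam1 and Dcn in the members, while the other class was chosen by them. Smooth muscle genes, of which Cnn1 was at 0, summed to 42.3 CPM, and ciliated cell genes, of which Ccdc153 and Tmem212 were at 0, to 3.61 CPM. Red cell genes summed to 10529 CPM in the members and germ cell and sperm genes to 311 CPM, although a lysis step for red cells preceded the loading.

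The 5 panel genes were chosen for being high in these cells, so their levels are a description. Defb38 stood at 3374 CPM (95% interval 3330 to 3419) in the members, 821 CPM in the Spint4 and Defb23 cells, 1432 CPM in the cauda cells and 4.03 CPM in the caput cells. Defb22 stood at 3167 CPM (3124 to 3210) in the members, 776 CPM in the Spint4 and Defb23 cells, 9.38 CPM in the cauda cells and 0.244 CPM in the caput cells. Pate1 stood at 2351 CPM in the members, 673 CPM in the Spint4 and Defb23 cells, 568 CPM in the cauda cells and 0.671 CPM in the caput cells. The panel therefore joined genes that were near absent from the cauda cells with genes that were not. Bsph2 stood at 1858 CPM in the members, 339 CPM in the Spint4 and Defb23 cells and 183 CPM in the cauda cells. Car4 stood at 758 CPM in the members, 311 CPM in the Spint4 and Defb23 cells and 3.52 CPM in the cauda cells, where it rested on 3 UMIs. In the corpus cells of other types, Defb38 was at 1028, Defb22 at 934, Pate1 at 679, Bsph2 at 613 and Car4 at 250 CPM. So Defb38, Defb22, Pate1 and Bsph2, summed over all Spint4 and Defb23 cells, were at or below that background, while Car4 was above it. They are not read as expression in that group as a whole, but its cells differed. The 188 of them with a log2 ratio of both folds of -1.5 to 0 (0.1 added to each) lay above that background. They held 1695 CPM of Defb38, 1632.5 of Defb22, 1530.5 of Pate1 and 691 of Bsph2. These cells were set apart by the same genes, so this is a description.

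**Figure D2:**
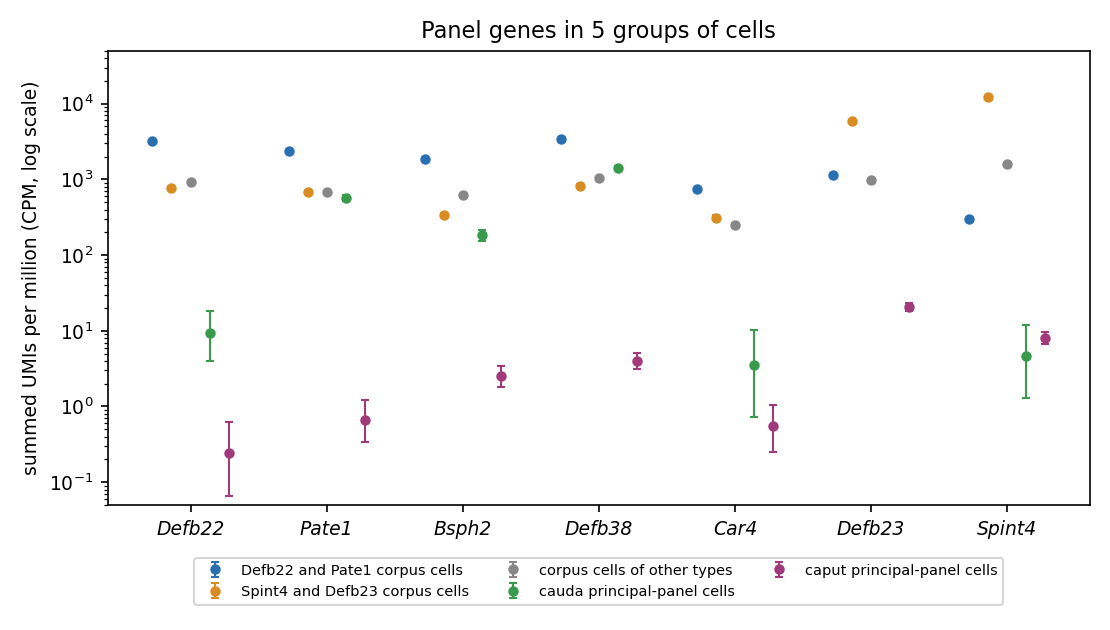
Level in CPM (log scale) of the 5 Defb22 and Pate1 panel genes and of Defb23 and Spint4 in 5 groups of cells, with exact Poisson 95% intervals; a gene at 0 UMIs (Defb23 in the cauda cells) has no point. The members are highest for the 5 panel genes, and the corpus cells of other types hold each of the 7 genes at 250 CPM or more.

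Each panel gene was also measured in cells chosen without it. With Defb22 left out, 1322 cells were chosen by the other 4 genes, and they held 3057 CPM of Defb22 against 820 CPM in the matching Spint4 and Defb23 cells, a ratio of 3.73 (3.55 to 3.92). The ratio of the gene left out was 5.10 (4.73 to 5.51) for Bsph2, 3.64 (3.47 to 3.82) for Defb38, 3.11 (2.95 to 3.28) for Pate1 and 2.30 (2.12 to 2.503) for Car4. Each of the 5 genes was higher in cells that the others had chosen, and Car4 least. This is a description, since the 5 genes had been chosen together with earlier results of these data known. The cells were also largely the same: with Defb22 left out, 1235 of the 1322 were members.

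Single members differed in which panel gene they held most of. Defb38 was the highest of the 5 in 518 members, Defb22 in 442, Pate1 in 223, Bsph2 in 98 and Car4 in 3. Defb22 made up a median of 23.1% of a member's panel UMIs, with quartiles of 12.5% and 33.7%. All 5 genes were found together in 770 members (60.0%). When each cell was thinned to 1000 UMIs, which no cell fell short of, this held for 266 members (20.7%), 3.85% of the Spint4 and Defb23 cells and 3.38% of the corpus cells of other types. After thinning, a Defb22 UMI was found in 78.4% of the members (76.1 to 80.6%), 38.3% of the Spint4 and Defb23 cells and 33.2% of the corpus cells of other types. Without thinning the shares were 92.3%, 62.3% and 59.9%, at median depths of 2714.5, 2195.5 and 3240.5 UMIs.

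The genes of the other panel were not all at background in the members. Spint4, which encodes a Kunitz-type protease inhibitor, stood at 297 CPM in the members, 12298 CPM in the Spint4 and Defb23 cells and 1574 CPM in the corpus cells of other types. Spint5 stood at 336, 6288 and 821 CPM in the same groups. Both were below the background of the library in the members. The beta-defensin Defb23 stood at 1129 CPM in the members, 5948 CPM in the Spint4 and Defb23 cells and 969 CPM in the corpus cells of other types. A Defb23 UMI was found after thinning in 49.9% of the members and 37.3% of the corpus cells of other types, whereas for Spint4 the shares were 32.7% and 38.3%.

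The comparison with the Spint4 and Defb23 cells asks how the principal cells of the corpus differ among themselves. A gene was called where its CPM ratio was at least 2 and the higher group held at least 100 UMIs, and genes of the panels and of the filter were left out. Of 5369 genes tested, 177 (3.3%) were higher in the members and 112 (2.09%) were lower, and the median log2 ratio was -0.06. Because the members hold more UMIs in all, the same 100 UMIs reach a lower level in them, and 5.38% were called in either direction. With the lowest CPM of a called gene set to 49.5 in either direction, 80 genes were higher and 112 lower. TMM scaling, which shifts the median log2 ratio of all genes to 0.18, gave 286 higher and 80 lower. Among the called genes, 29 higher and 11 lower ones carry only clone names and are not described.

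Among the genes higher in the members, the iron-binding defence protein lactoferrin, Ltf, stood at 447 CPM against 91.1 CPM, a ratio of 4.91 (4.23 to 5.73). Dapl1 stood at 595 CPM against 121 CPM, a ratio of 4.91 (4.31 to 5.61). Cyp17a1, the enzyme that turns progestagens into androgen precursors, stood at 121 CPM against 28.7 CPM, a ratio of 4.22 (3.23 to 5.61). Ltf, Dapl1 and Cyp17a1 were at 157, 182 and 42.6 CPM in the corpus cells of other types, so the lower group lay below the background of the library for all 3. Rarer genes with high ratios included Ch25h, which makes 25-hydroxycholesterol, at 49.96 CPM against 8.42 CPM, and the carboxylesterase Ces1e at 29.5 CPM against 4.46 CPM. The fatty acid hydroxylase Cyp4a12a stood at 16.4 CPM against 2.48 CPM, and Ppard, a nuclear receptor for fatty acids, at 17.0 CPM against 3.47 CPM. Ch25h, Ces1e and Cyp4a12a were higher still in the cauda cells (147, 103 and 38.7 CPM), whereas Cyp17a1 was at 3.52 CPM there. The highest ratio, clone names apart, was that of Cox4i2, a subunit of cytochrome oxidase, at 6.79 (3.04 to 18.8), but it rested on 6 UMIs in the lower group. Transporters were represented by Slc52a3, which carries riboflavin, at 68.6 CPM against 14.9 CPM, and Slc14a2, a urea transporter, at 15.2 CPM against 3.47 CPM. B3galt2, Erich6, Fga, Magee1 and Fam69a completed the 15 highest ratios, which ran from 4.199 to 6.79.

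The genes lower in the members had larger ratios. Defb30, a beta-defensin, stood at 162 CPM in the members and 4577 CPM in the Spint4 and Defb23 cells, 28.3 times as much (26.5 to 30.1). Spink11, a Kazal-type protease inhibitor, stood at 254 CPM against 5249 CPM, a ratio of 20.7 (19.7 to 21.8) the other way. Defb21 stood at 28.6 CPM against 869 CPM and Spink12 at 39.9 CPM against 848 CPM. In the corpus cells of other types, Defb30 was at 508, Spink11 at 597, Defb21 at 82.9 and Spink12 at 96.7 CPM, all above the members. These 4 genes were therefore not above background in the members. Agr2, a protein disulfide isomerase of secretory cells, had the largest ratio, 1.053 CPM against 54.0 CPM or 51.2 times (24.0 to 130), on 7 UMIs in the members. Muc15, a membrane mucin, stood at 8.88 CPM against 264 CPM, Gc, the vitamin D binding protein, at 4.51 CPM against 146 CPM, and Ap1s2, a subunit of a clathrin adaptor, at 15.7 CPM against 425 CPM. Adgrg2, a receptor of the efferent ducts and the caput epithelium, stood at 6.32 CPM against 99.5 CPM, and Man1a, a mannosidase of glycan trimming, at 13.8 CPM against 175 CPM. Rnase13, Defb12, Defb15, Ntsr2 and Cited1 completed the 15, from which genes of the panels were left out. One of these, Lcn5 of the caput panel, was also called lower, with a ratio of 27.2 (25.7 to 28.9) the other way. In the caput cells, Agr2, Muc15, Ap1s2, Adgrg2 and Man1a stood at 251, 1068, 992, 6757 and 1405 CPM, above either group of corpus cells, and the same order held for Rnase13, Defb12 and Defb15. The other 7 of the 15 did not stand higher in the caput cells than in the Spint4 and Defb23 cells. Defb30 (573 CPM) and Spink11 (690 CPM) were lower in the caput cells, while Spink12 (844 CPM against 848 CPM) was level within counting error. The corpus cells of other types held 122 CPM of Adgrg2, more than the Spint4 and Defb23 cells did.

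**Figure D3:**
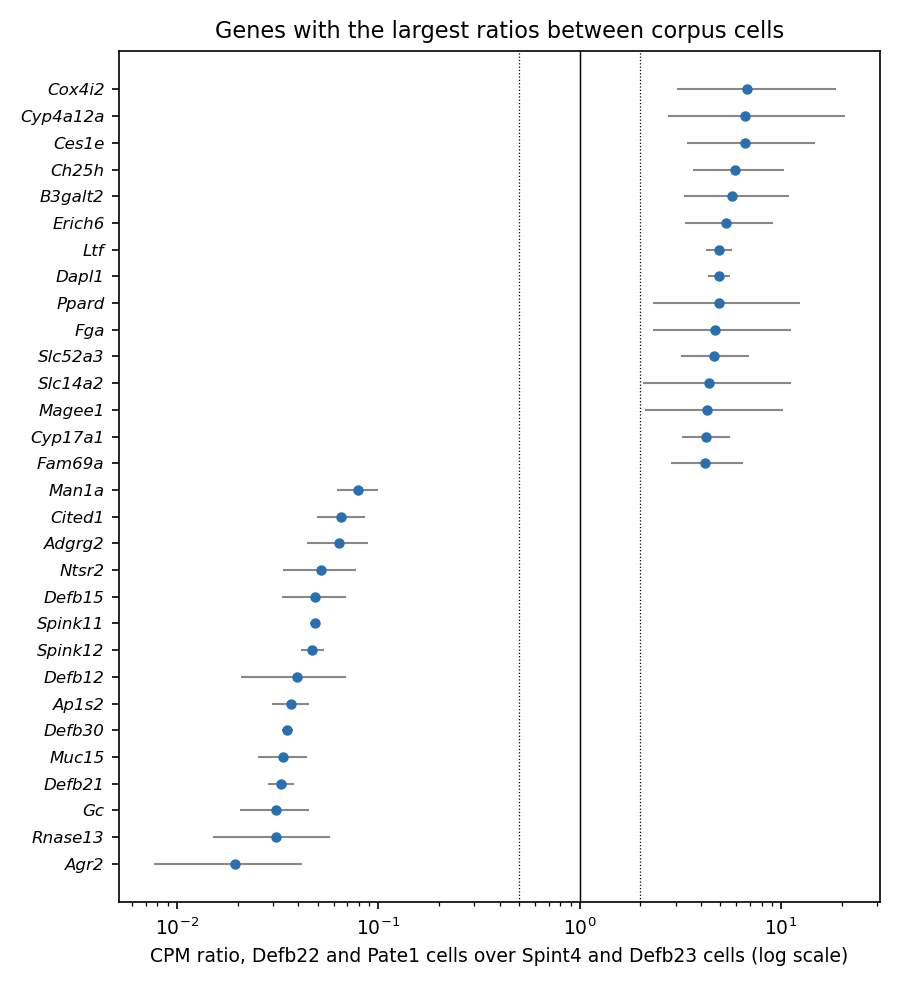
CPM ratio (log scale) of the Defb22 and Pate1 cells over the Spint4 and Defb23 cells for the 15 genes with the largest ratio in each direction, genes of the 4 panels and clone names apart (Lcn5 is therefore not drawn), with exact conditional binomial 95% intervals. Dotted lines mark the ratios of 2 and 0.5; the genes lower in the members reach ratios of 0.0195, while the higher ones end at 6.79.

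Beta-defensin genes went both ways. Of 19 tested on the list, 5 were called higher in the members (Defb9, Defb26, Defb37, Defb40 and Defb43), 5 lower (Defb12, Defb15, Defb21, Defb30 and Defb42) and 9 neither. Over all genes, 3.3% were called higher and 2.09% lower. The median log2 ratio was 0.33 on the list against -0.06 over all genes. Defb37 stood at 4664 CPM in the members against 1843 CPM, Defb43 at 2704 CPM against 871 CPM and Defb40 at 959 CPM against 245 CPM. Defb26 stood at 132 CPM against 33.2 CPM, a ratio of 3.99 (3.11 to 5.198). In the other direction, Defb42 stood at 1262 CPM against 2820 CPM. Defb28 was the beta-defensin gene with the most UMIs in the members, at 10474 CPM against 7722 CPM, and was not called. Summed over the list without the panel genes, beta-defensin RNA made up 28201 CPM in the members and 24957 CPM in the Spint4 and Defb23 cells.

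Some genes that went in opposite directions lay within 200 kb of each other. Within 200 kb on chromosome 2, Defb26 (chr2:152507798-152511692) was higher and Defb21 (chr2:152572744-152574944) lower in the members, and this stretch also holds Defb22, Defb23 and Defb29 of the panels. On chromosome 14, Defb43 (chr14:63011771-63018088) was higher while Defb30 (chr14:63034087-63049960) and Defb42 (chr14:63046991-63058149) were lower. On chromosome 8, Defb37 and Defb40 were higher and Defb12 lower within one such window, and Defb9 was higher and Defb15 lower in another. Defb14, a beta-defensin outside the list, was also higher near Defb12 (21.5 CPM against 6.93 CPM). Other neighbours went the same way. Spint3, Wfdc6a and Wfdc16 on chromosome 2 were all higher, near Sdc4, which was lower. Pate3 and Pate4 on chromosome 9 were both higher. The aldo-keto reductases Akr1c12, Akr1c13 and Akr1c19, side by side on chromosome 13, stood at 83.7, 87.4 and 518 CPM against 21.8, 26.2 and 184 CPM. Near-identical copies within such families can share reads, and the sources used here do not say how the authors counted them.

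Counts in the lists of other secreted products are to be read against the 3.3% of all genes called higher and 2.09% called lower. Inhibitors of the Kunitz and WAP families were called higher for 4 of 14 genes and lower for none (median log2 ratio 0.37). These were Wfdc15b at 5811 CPM against 2689 CPM, Spint3 at 2502 CPM against 770 CPM, Wfdc16 at 1655 CPM against 505 CPM and Wfdc6a at 165 CPM against 54.5 CPM. Of 7 Kazal-type inhibitors, Spink10 (2797 CPM against 1124 CPM) and Spink13 were called higher and Spink2, Spink11 and Spink12 lower. Spink8, the most abundant of them, stood at 21319 CPM in the members and 22287 CPM in the Spint4 and Defb23 cells and was not called. Proteins of the Pate and Ly6 family were called higher for 3 of 7 genes, Ly6f (1215 CPM against 332 CPM), Pate3 and Pate4, and for none lower (median 0.64).

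Of 9 sperm-binding secreted proteins, Cd52 (17166 CPM against 8008 CPM), whose product is a glycosylated peptide that is passed to the sperm surface, and Crisp4 (187 CPM against 89.6 CPM) were called higher. Crisp1, a cysteine-rich protein that binds sperm, fell just short with 12935 CPM against 6602 CPM, a ratio of 1.96 (1.92 to 2.00). Clusterin, Clu, an extracellular chaperone, was called lower at 405 CPM against 3634 CPM. Among 4 lipocalins, Ptgds (3080 CPM against 1054 CPM) was called higher and Lcn5 (193 CPM against 5250 CPM) lower. Of 5 genes of the ribonuclease A family, Rnase9 (1105 CPM against 2768 CPM) and Rnase13 were called lower. The serpin Serpina16 was called higher (1831 CPM against 839 CPM), 1 of 8 serpins. Over all genes, 3.3% were called higher and 2.09% lower, so 1 called gene of 8 is not read as a result about serpins.

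The lists of ion and bicarbonate handling, through which the duct acidifies its fluid, and of lipids and steroids held 1 or 2 called genes each, to be read against the 5.38% of all genes called in either direction. Of 5 carbonic anhydrase and bicarbonate genes tested besides Car4, Car2, the cytosolic carbonic anhydrase, was called higher (413 CPM against 134 CPM, ratio 3.09, 2.73 to 3.52), as was the bicarbonate cotransporter Slc4a5 (20.5 CPM against 8.91 CPM). Car2 was at 177 CPM in the corpus cells of other types and is also a clear cell gene. Of 12 ion and water channels and claudins, the aquaporin Aqp9 was called higher (48.9 CPM against 24.3 CPM) and the chloride transporter Clcn5 lower (46.6 CPM against 125 CPM). The taurine carrier Slc6a6 was called higher and the amino acid carrier Slc1a5 lower among 9 solute carriers. In lipid synthesis, Scd1, the stearoyl desaturase (130 CPM against 45.1 CPM), and Sc5d were called higher among 18 genes. Srd5a1, which makes dihydrotestosterone, was called higher (59.1 CPM against 27.7 CPM) among 6 genes of steroid action.

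In the larger lists of general cell functions few or no genes were called, where 5.38% of all genes were called in either direction, so that counts of 0 or 1 in lists of this size lie near the share over all genes. None was called among 18 ER chaperones and unfolded protein response genes (median log2 ratio -0.29), 27 genes of N-glycosylation and secretion (-0.05), 10 of glycolysis (-0.28) and 16 of the TCA cycle (-0.05). The same was true of 20 immediate early and heat shock genes (-0.38) and of 10 segment transcription factors and signals (-0.26). Of 18 glutathione peroxidase and peroxide genes, Gpx1 was called lower (133 CPM against 307 CPM), and the secreted Gpx3, at 6934 CPM against 4258 CPM, was not called. Mgst1 was called lower among 13 glutathione S-transferases (88.8 CPM against 221 CPM). Of 11 genes of innate defence and antigen presentation, Ltf was called higher and H2-Eb1 lower, and of 6 genes of carnitine, inositol and polyol supply, Akr1b7 higher and Isyna1 lower. Among 8 genes of iron and zinc handling, Ltf, which stands on both lists, was called higher and the zinc exporter Slc30a2 lower.

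Levels of 10 genes outside both corpus panels, chosen after their values were seen, were followed along the order of the folds, as a description. The 1804 cells were ordered by the log2 ratio of both folds, with 0.1 added to each, and split into 6 ranges, the upper 3 of which are the members. From the lowest to the highest range, Lcn5 went from 8036 through 4637, 845, 395 and 180 to 93.4 CPM. Dapl1 went from 37.5 through 150, 245, 359 and 522 to 816 CPM, and Ltf from 52.7 through 124, 131, 249 and 390 to 626 CPM. Spink8 stayed between 20463 and 23607 CPM. Cd52 went from 5353 to 18881 CPM and Clu from 5096 to 209 CPM, in the same order in all 6 ranges. Other genes did not step in this way: Rnase9 was at 3701, 2935, 979, 1213, 1099 and 1051 CPM, and Srgn at 540, 665, 882, 885, 819 and 700 CPM. Cells in the middle ranges had fewer UMIs, with medians of 1802.5 and 1898 just below and above 0 and 4059 in the highest range, and whether mixed RNA from both kinds of cell contributes there was not tested.

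**Figure D4:**
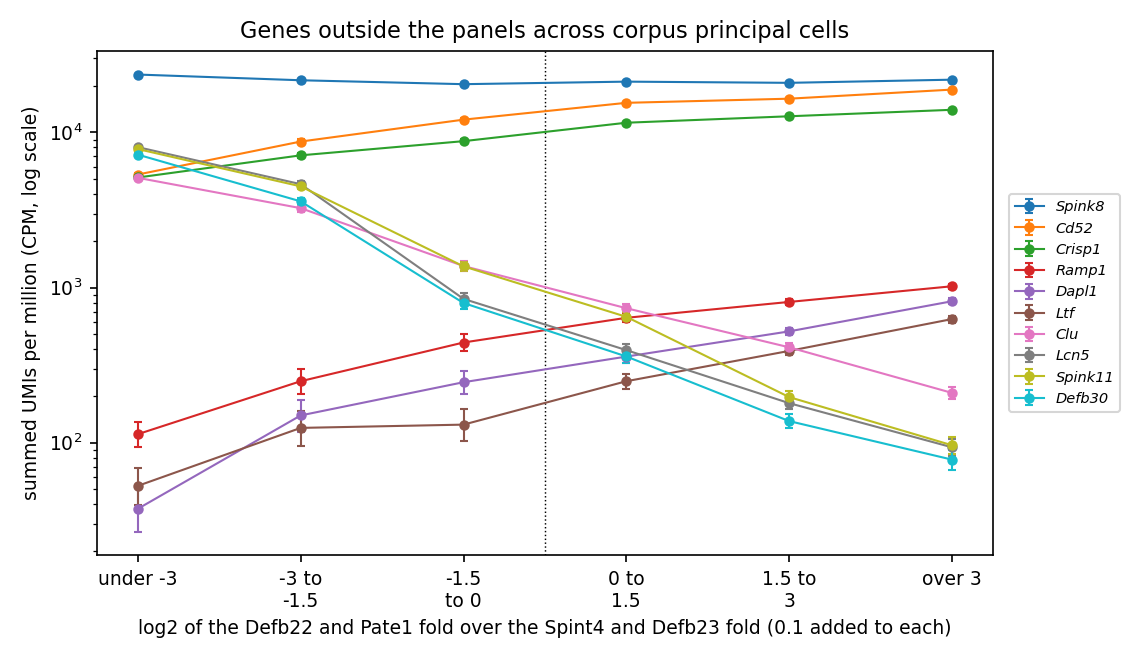
Level in CPM (log scale) of 10 genes outside both panels in 6 ranges of the log2 ratio of the Defb22 and Pate1 fold over the Spint4 and Defb23 fold, with exact Poisson 95% intervals; the dotted line separates Spint4 and Defb23 cells (left) from members (right). Lcn5, Spink11, Defb30 and Clu go down from range to range, Dapl1, Ltf, Ramp1, Cd52 and Crisp1 go up, and Spink8 stays between 20463 and 23607 CPM.

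The comparison with the cauda principal-panel cells asks how the members differ from principal cells further along the duct. Region and library cannot be told apart in it. Of 5354 genes tested, 633 (11.8%) were higher in the members and 92 (1.72%) were lower, with a median log2 ratio of 0.21. Of the genes higher, 4 belong to the Spint4 and Defb23 panel, which the choice of the members had used, and 629 of 5349 genes were higher without that panel. With the lowest CPM of a called gene set to 117 in either direction, 113 were higher and 92 lower. The cauda cells were fewer and held more RNA of other cells, with 2233 CPM of fibroblast genes and 699 CPM of macrophage and dendritic cell genes against 332 and 214 CPM in the members. The part of this RNA in the called genes was not tested.

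Outside the panels and clone names, Defb26 was the called gene with the highest ratio to the cauda cells, at 132 CPM in the members against 1 UMI, or 1.17 CPM, in the cauda cells (ratio 113, 20.2 to 4465). Cyp17a1 stood at 121 CPM against 3 UMIs or 3.52 CPM (ratio 34.4, 11.7 to 167). Ramp3, which modifies the receptors of adrenomedullin, stood at 340 CPM against 14.1 CPM (ratio 24.1, 13.8 to 46.8). Enpp2, the enzyme autotaxin that makes lysophosphatidic acid, stood at 160 CPM against 5.86 CPM (ratio 27.3, 11.7 to 84.3), and in the caput cells it stood at 3593 CPM. The corpus cells of other types held 47.0 CPM of Defb26, 42.6 CPM of Cyp17a1, 146 CPM of Ramp3 and 105 CPM of Enpp2, less than the members. Cpn1, a carboxypeptidase subunit, stood at 52.8 CPM against 1 UMI (ratio 45.0, 8.03 to 1784). Cdca3 and Ube2c, genes of cell division, stood at 34.3 and 64.3 CPM against 1 and 2 UMIs, and the connexin gene Gjb1 and Ttyh1 at 28.6 and 26.3 CPM against 1 UMI each. For the genes at 1 to 3 UMIs the ratio is known only within these wide intervals. Defb30 was also among the 10 with the highest ratio outside the panels (162 CPM against 7.04 CPM), but its level in the members was below the background of the corpus library. The same was true of Lcn5, a caput panel gene (ratio 32.9, 14.1 to 101.5).

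Of the genes lower in the members than in the cauda cells, Spink5, a Kazal-type inhibitor, stood at 47.9 CPM against 530 CPM, 11.1 times less (9.58 to 12.8). The kallikrein Klk1b27 stood at 2.26 CPM against 131 CPM, and the serpin Serpine2, an inhibitor of thrombin and plasminogen activators, at 26.3 CPM against 790 CPM. Cited1, a transcriptional coregulator, stood at 9.93 CPM against 172 CPM, and Lrpap1, a chaperone of lipoprotein receptors, at 19.7 CPM against 165 CPM. Serpine2 also reached 502 CPM in the cauda cells of other types, and Klk1b27, Cited1, Spink5 and Lrpap1 were at 54.4, 73.8, 192 and 103 CPM there. The inhibitors of differentiation Id1 and Id3 stood at 15.8 and 36.7 CPM against 158 and 355 CPM, and at 180 and 757 CPM in the cauda cells of other types, above the cauda principal-panel cells. The same order was found for Inmt and for the collagen gene Col1a1. S100a8, a neutrophil gene, stood at 1.20 CPM against 157 CPM, and at 69.3 CPM in the cauda cells of other types.

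Beta-defensins divided again between the members and the cauda cells. Of 17 tested outside both corpus panels, 8 were called higher in the members and 4 lower, with a median log2 ratio of 0.57 against 0.21 over all genes. This count and those of the lists that follow are to be read against the 11.8% of all genes called higher and 1.72% called lower. Defb37 stood at 4664 CPM against 949 CPM and Defb39 at 1757 CPM against 353 CPM. Defb2 stood at 2304 CPM against 7953 CPM, Defb40 at 959 CPM against 2296 CPM and Defb9 at 440 CPM against 1532 CPM. Of the members, the Spint4 and Defb23 cells and the cauda cells, Defb9 and Defb40 stood highest in the cauda cells and lowest in the Spint4 and Defb23 cells, whereas Defb26 and Defb37 were highest in the members. The comparisons share the members. Of the 8 called higher, Defb21 and Defb30 were below the background of the corpus library in the members. Of 14 Kunitz and WAP inhibitors outside the panels, 5 were called higher and 4 lower, with a median log2 ratio of -0.04. Wfdc13 had the highest level of those called, 8014 CPM against 518 CPM (ratio 15.5, 14.1 to 17.0). Of 9 sperm-binding proteins, Npc2, a carrier of cholesterol (5580 CPM against 759 CPM), Eppin (629 CPM against 114 CPM) and Crisp4 were called higher and Clu lower. Cd52 stood at 17166 CPM in the members and 33167 CPM in the cauda cells, and Crisp1 at 12935 and 13767 CPM, and neither was called.

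Rnase9 (1105 CPM against 63.3 CPM), Rnase11 and Rnase12 were called higher in the members among 4 genes of the ribonuclease A family. Car2 (413 CPM against 38.7 CPM, ratio 10.7, 7.58 to 15.5) and Car5b were called higher among 5 genes of bicarbonate handling. Srd5a1 stood at 59.1 CPM against 7.04 CPM on 6 UMIs in the cauda cells. Pate2 (670 CPM against 82.1 CPM), Pate3 and Pate4 were called higher and Ly6a lower. Pate3 was at 0 UMIs in the cauda cells, so with 3 UMIs set as the floor over the group it was at least 8.08-fold higher in the members. Ldhb, which makes lactate dehydrogenase, was called lower (190 CPM against 727 CPM) and was the 1 called gene of 10 in glycolysis. Of 7 Kazal-type inhibitors, Spink2, Spink11, Spink12 and Spink13 were called higher, the first 3 of them at levels below the corpus background, and Spink5 lower. Against the 11.8% and 1.72% of all genes called higher and lower, of 8 serpins 3 were lower, and of 18 glutathione peroxidase and peroxide genes 5 were higher and 1 lower. None of 18 ER chaperone genes and 16 genes of the TCA cycle was called.

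Some corpus genes outside the panel were higher, and others lower, in members with a higher fold of their panel. From the 321 members with a fold of 1 to 1.5 to the 106 with a fold of 4 or more, Wfdc13 went from 4958 to 11290 CPM and Cd52 from 14664 to 20665 CPM. Defb23, of the other panel, went from 609 to 1608 CPM, while Spint4 was at 385 and 232 CPM. Ltf went the other way, from 607 to 180 CPM, and Ccnd2, a cyclin of the first gap phase, from 619 to 296 CPM. The members with the higher folds were also deeper, with a median of 5360.5 UMIs against 2076. By depth alone, Defb22 went from 2123 CPM in the 321 shallowest members to 3491 CPM in the 321 deepest, and the median mitochondrial share from 21.1% to 12.2%. From the lowest to the highest range of folds, the red cell gene Hbb-bs went from 15233 to 2547 CPM, the fibroblast gene Dcn, which the filter used, from 194 to 72.8 CPM and the median mitochondrial share from 17.3% to 11.5%. The part of depth and of this RNA in the differences by fold was not tested.

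The members also differed in how much of their panel was Defb22, and this division was made after the values were seen. Among 1135 members with 10 or more panel UMIs, Defb22 made up at least 30% of the panel in 393 (called Defb22-rich here) and less than 10% in 220 (called Defb22-poor). Their median depths were 3752 and 3387 UMIs. The split also followed the fold of the panel, of which Defb22 is part. The median fold was 1.66 in the Defb22-poor members, 3.04 at a Defb22 share of 30 to 40% and 2.69 at 40% or more. The part of the fold in the differences between Defb22-rich and Defb22-poor members was not tested. By the choice of the members, the Defb22-poor ones held the rest of the panel, with Pate1 at 2088 CPM and Defb38 at 3150 CPM. Of 2913 genes tested outside the panels and the filter, 105 (3.6%) were higher in the Defb22-rich members and 13 (0.446%) were lower, with a median log2 ratio of 0.16. With the same lowest CPM in either direction, 38 were higher and 13 lower.

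The 13 genes higher in the Defb22-poor members included Ltf, at 843 CPM against 260 CPM in the Defb22-rich members (ratio 3.24, 2.94 to 3.59), and Ccnd2, at 908 CPM against 285 CPM (ratio 3.19, 2.90 to 3.51). Ptgds stood at 5841 CPM against 2097 CPM, Ldhb at 362 CPM against 128 CPM and Id2 at 333 CPM against 134 CPM. The beta-defensins Defb40 (1556 CPM against 707 CPM) and Defb9 (740 CPM against 344 CPM) were also among them, with Pnmt, Smarca1, Akr1b7, Zfas1, Cdkn1a and Gm23935. In the cauda cells, Defb40 stood at 2296, Defb9 at 1532, Ldhb at 727 and Id2 at 671 CPM, above both kinds of member. Ltf and Ccnd2 stood at 579 and 265 CPM in the cauda cells, below the Defb22-poor members. Id2 stood at 536 CPM in the corpus cells of other types, above the Defb22-poor members. In the cauda cells of other types it stood at 1069 CPM. Whether cells of this class express Id2 themselves was not tested, so its level in the members cannot be told apart from background. Ltf, Ccnd2, Ptgds and Ldhb were at 157, 396, 1073 and 285 CPM in the corpus cells of other types.

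Among the genes higher in the Defb22-rich members, Defb26 stood at 197 CPM against 31.2 CPM (ratio 6.30, 4.47 to 9.15) and Defb20 at 209 CPM against 41.1 CPM (ratio 5.08, 3.76 to 7.03). Srgn, the core protein of a secretory proteoglycan, stood at 1091 CPM against 323 CPM, and Ptn, the growth factor pleiotrophin, at 77.4 CPM against 11.6 CPM. In the cauda cells the same genes stood at 1.17, 19.9, 61.0 and 9.38 CPM. Defb26, Defb20 and Srgn were thus below both kinds of member. Ptn rested on 8 UMIs in the cauda cells and on 13 in the Defb22-poor members, so these 2 levels cannot be told apart. In the corpus cells of other types the same genes stood at 47.0, 52.1, 656 and 43.4 CPM, between the Defb22-poor and the Defb22-rich members. Defb23 went from 479 CPM in the members with the lowest Defb22 share through 827, 1088 and 1481 to 1770 CPM in those with the highest, while Spint4 stayed between 254 and 310 CPM. Defb23 is part of the other panel, whose fold the rule kept below the member's own fold. The median fold of that panel was 0.244 at the lowest share and 0.535 at the highest, and the part of the rule in this rise was not tested. Crisp1 and Spink8 did not follow the share, with 11961 to 13824 CPM and 20194 to 23500 CPM.

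**Figure D5:**
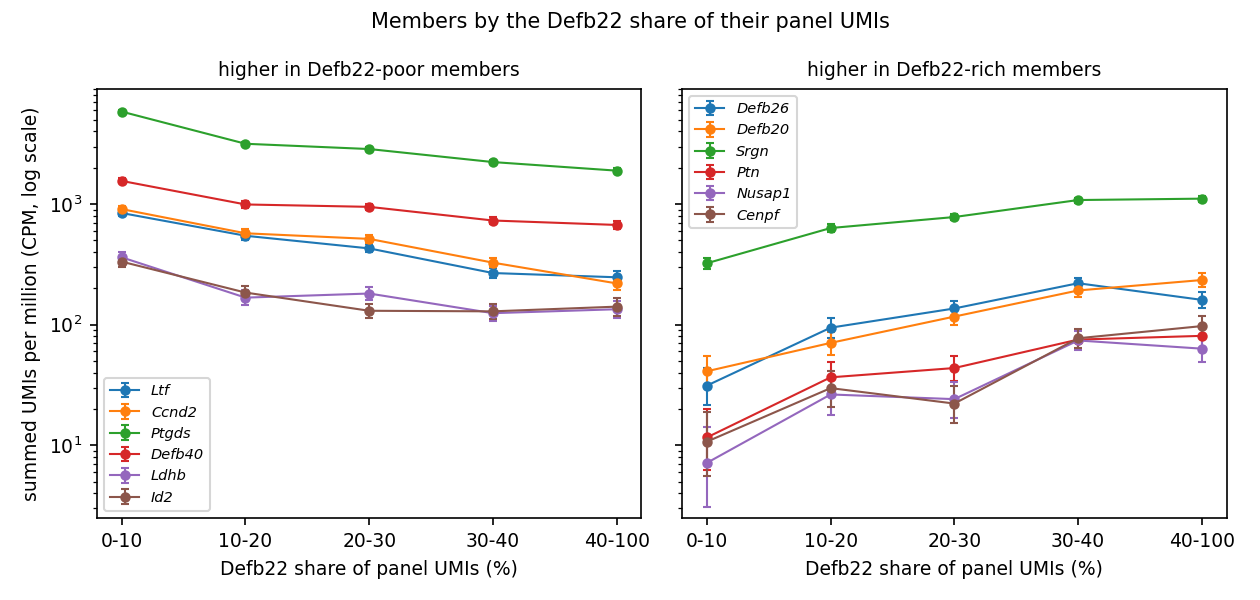
Level in CPM (log scale) of 12 genes in 1135 members split by the share of Defb22 among their panel UMIs (x axis, in percent), with exact Poisson 95% intervals; 6 genes higher in Defb22-poor members are on the left and 6 higher in Defb22-rich members on the right. Ltf goes from 843 to 247 CPM and Defb20 from 41.1 to 234 CPM between the lowest and the highest share.

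Genes of cell division were also higher in the Defb22-rich members. Nusap1, a spindle protein, stood at 69.7 CPM against 7.14 CPM (ratio 9.76, 4.85 to 22.96), Cenpf, of the kinetochore, at 85.0 CPM against 10.7 CPM and Mki67, the proliferation marker, at 60.5 CPM against 16.1 CPM. This RNA was held by few cells. Of all members, 56 (4.36%) held 5 or more UMIs of the 6 genes Mki67, Top2a, Cdk1, Ccnb1, Birc5 and Cenpf, and 64 members (5%) held 80.4% of all UMIs of this list. The 56 cells had a median of 9935.5 UMIs and held 3741 CPM of Defb22, 13122 CPM of Crisp1 and 23081 CPM of Spink8, against 3167, 12935 and 21319 CPM over all members. Of the Defb22-poor members 3 were among the 56, and of the members with a Defb22 share of 30 to 40% and of 40% or more, 20 and 13.

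After thinning to 1000 UMIs, a UMI of the division list was found in 6.36% (3.52 to 10.4%) of the Defb22-poor members and in 16.3% (11.5 to 21.98%) of those with a share of 30 to 40%. The share was 10.8% over all members, 9.62% in the Spint4 and Defb23 cells, 8.63% in the corpus cells of other types and 2.99% in the cauda cells. The members' summed level, 220 CPM, was close to the 206 CPM of the corpus cells of other types, so the list is not read as a difference between groups of corpus cells. With the 56 cells left out, 62 genes were higher in the Defb22-rich members, among them Defb26 (ratio 6.75), Defb20 (5.04), Srgn (3.37) and Ptn (5.29), while the ratio of Ube2c went from 6.63 to 1.005. The ratios of other division genes went down too. Of the division list, by which the 56 cells had been chosen, Cenpf (2.69) and Mki67 (2.999) stayed above 2. Top2a (1.31), Cdk1 (1.26) and Birc5 (0.646) did not. Outside that list, Nusap1 (2.59) and Ccnb2 (3.88) stayed above 2, while Prc1 (1.38) and Cenpa (1.52) did not.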

How the data were processed

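The submitters' processing notes name STAR 2.7.3a, UMI-tools and the build GRCm38.p6. The matrix deposited by the authors holds raw UMI counts of 24335 gene symbols in 14845 cells. The sources used here do not say how cells were called or repeated reads treated. Python 3.11.15, scipy 1.17.1 and scanpy 1.11.5 were used, with edgeR 4.0.16 for TMM factors only.

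UMIs were summed per group of cells and divided by the sum of all genes. For ratios, 0 UMIs in a group were replaced by 3. Thinning used random seed 0. Scrublet called 2 corpus cells and none elsewhere, so doublets were not effectively found and none were left out, and 50 members lay in the top 5% of the corpus score. The ratio and its interval were tested on simulated counts.

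Genes were named by rule: the 15 largest ratios in each direction against the Spint4 and Defb23 cells, the 10 largest against the cauda cells, panel genes, and for each list up to 4 members by UMIs and those called. Clone names and genes of any panel were left out of the largest ratios. Members, lists and panels were chosen with earlier results of these data known. Genes named in the ranges of folds, the Defb22 split, and the neighbours Akr1c12, Akr1c13 and Akr1c19 were chosen after their values were seen. Alternatives changed the cell filters, margin, depth, scaling and size rule.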

Additional observations from a re-analysis of the deposited data

How the results depend on the processing

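No paired analysis was possible because each region had 1 library and no replicate numbers, and no replicate could be left out. The members numbered 827 with 2000 or more UMIs per cell, 642 with no UMI of the 5 filter genes and 854 without cells over 20% mitochondrial UMIs. Counts of genes higher and lower than in the Spint4 and Defb23 cells (177 and 112) were 111 and 51 with no UMI of the filter genes, 52 and 29 after thinning, 20 and 39 at a ratio of 4, 86 and 41 at 300 UMIs and 908 and 3428 with no minimum. TMM gave 286 higher. Against the cauda cells (633 and 92) they were 650 and 11, 181 and 31, 212 and 25, 261 and 31, and 1543 and 3373 under the same settings. With the lowest CPM equal, a setting chosen after seeing the data, 80 and 113 genes were higher than in the 2 groups. Fewer cells or UMIs leave fewer genes that can reach 100 UMIs. For the Defb22-rich against Defb22-poor members (105 and 13), all settings were chosen after seeing the data: 62 were higher without dividing members, 38 with the lowest CPM equal, and 17 higher and 0 lower at a ratio of 4. Over 11 settings, 438 of the named genes' ratios stayed within the counting interval of the reported ratio, 110 moved outside it and 2 reversed: Gjb1 (0.901) and Ttyh1 (0.913), each against the cauda cells with no UMI of the filter genes, where 41 cauda cells remained. Both genes were at 0 UMIs in those cells, so the floor of 3 UMIs, which exceeds the members' level there, sets these values.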
